A study of Mus musculus with 5 samples.

Results

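The BCL-2 family decides whether a cell keeps its mitochondrial outer membrane intact or loses it and dies by apoptosis, and 9 of its genes were followed here through the cells of doxorubicin (DOX) treated breast tumors in mice. The genes were chosen by symbol, as rows of the feature lists, and all 9 were found among the 32285 features of the T cell libraries and among the 54987 features of the whole-tumor libraries. They were Bcl2, Bcl2l1, Mcl1, Bcl2a1a, Bcl2a1b, Bcl2a1d, Bcl2l11, Bak1 and Bid. Their levels were read in 5 lineages, each defined by a list of 10 marker genes, and in each of 5 libraries.

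Family members act against each other by binding. BCL-2, BCL-XL (the product of Bcl2l1), MCL-1 and A1 (the product of the Bcl2a1 genes) hold the membrane closed by capturing the pore-forming effectors BAK and BAX and their activators. BIM (from Bcl2l11) and BID are BH3-only activators that displace or trigger those effectors, and BAK, encoded by Bak1, forms pores itself. Immune lineages are known to lean on different guardians, with BCL-2 sustaining resting T cells and MCL-1 and A1 sustaining neutrophils, whose lives are short.

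The study grew 4T1 tumors, from a BALB/c mammary carcinoma line often used as a triple negative breast cancer model, after injection into the mammary fat pad of mice of the BALB/c strain, whose age the labels give as 12 weeks. DOX was given into the tail vein at 5 mg/kg in 3 doses, 3 days apart, and treated tumors were labelled sensitive or resistant. The T cell library of sensitive tumors and that of resistant tumors, called the sensitive and the resistant library below, each pooled 3 tumors after magnetic T cell isolation and removal of cancer cells with CD90.1 beads. The whole-tumor libraries, 1 of each kind, skipped that step and came from a saline control and from DOX treated tumors labelled sensitive and resistant. For the whole-tumor library labelled resistant, the title and the sensitivity field say resistant while the source field names a sensitive tumor, so it is called resistant-labelled here. The source field of the control also names a sensitive tumor, while its sensitivity field is N/A. All groups share the strain, the injection site and the cell line, which the series design spells 4T1-Th1.1 and the study's methods 4T1-Thy1.1. No group had more than 1 library. The differences below therefore have no replicate check, and every interval, 95% and exact, covers counting error only.

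The sensitive library held 3949 barcodes and 31690845 unique molecular identifiers (UMIs, counts of captured RNA molecules), and the resistant library 6116 barcodes and 35908799 UMIs. The whole-tumor libraries were shallower, with 275 to 501 barcodes and 537293 to 1731940 UMIs. The labelled cell type was T cell, yet the T lineage made up 55.9% of kept cells of the sensitive library and 58.8% of the resistant library, and fibroblasts another 23.8% and 19.6%. The T lineage held 1926 and 1818 cells, neutrophils 142 and 167, macrophages 200 and 176, fibroblasts 821 and 606 and cancer cells 100 and 131. In the T lineage the median mitochondrial share of UMIs was 2.56% and 5.69%. The T cell libraries had 31 cell barcodes in common, 18 of them among kept cells.

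Bcl2a1a, Bcl2a1b and Bcl2a1d are close copies on mouse chromosome 9 that encode A1, and their likeness limits how well each row can be read. In the GRCm38 annotation (GENCODE) Bcl2a1d lies at chr9:88723285-88731914 on the minus strand, Bcl2a1a at chr9:88956900-88962419 and Bcl2a1b at chr9:89199209-89207827, both on the plus strand. Their coding sequences have 516 bases each, of which 12 positions differ between the copies. The first 180 coding bases, in exon 1, hold 7 of the 12 and are shown with those positions in capitals, at chr9:88957051-88957230, chr9:89199360-89199539 and chr9:88731540-88731719 in the order printed.
Bcl2a1a: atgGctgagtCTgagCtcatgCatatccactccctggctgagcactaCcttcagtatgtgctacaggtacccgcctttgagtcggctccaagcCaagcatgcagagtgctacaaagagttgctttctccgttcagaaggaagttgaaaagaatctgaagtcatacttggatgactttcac
Bcl2a1b: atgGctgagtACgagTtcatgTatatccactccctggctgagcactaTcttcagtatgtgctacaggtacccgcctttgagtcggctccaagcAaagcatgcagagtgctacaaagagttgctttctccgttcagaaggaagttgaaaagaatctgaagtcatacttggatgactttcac
Bcl2a1d: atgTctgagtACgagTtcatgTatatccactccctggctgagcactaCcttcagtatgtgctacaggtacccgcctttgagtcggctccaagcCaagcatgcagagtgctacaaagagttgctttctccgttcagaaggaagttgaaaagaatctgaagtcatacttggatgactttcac

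The 3′ chemistry used reads the end of a transcript, so the last 180 coding bases are shown as well. They span both exons and differ at 4 positions, again in capitals.
Bcl2a1a: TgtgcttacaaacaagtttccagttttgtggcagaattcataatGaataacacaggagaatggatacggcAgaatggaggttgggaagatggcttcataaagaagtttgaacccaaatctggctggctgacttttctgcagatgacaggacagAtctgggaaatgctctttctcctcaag
Bcl2a1b: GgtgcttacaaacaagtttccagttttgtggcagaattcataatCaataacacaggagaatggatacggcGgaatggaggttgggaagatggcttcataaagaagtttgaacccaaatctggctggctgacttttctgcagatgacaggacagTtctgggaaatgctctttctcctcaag
Bcl2a1d: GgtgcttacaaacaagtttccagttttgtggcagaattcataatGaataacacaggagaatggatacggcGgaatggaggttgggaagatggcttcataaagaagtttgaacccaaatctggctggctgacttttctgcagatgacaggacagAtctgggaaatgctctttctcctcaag

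Between those positions the copies are the same letter for letter, and a read that falls there cannot be placed in 1 copy. Of all 50-base windows in the last 300 bases of the transcript, 64.5% of those in Bcl2a1a, 74.1% in Bcl2a1b and 94.8% in Bcl2a1d also occur in another copy. With 90-base windows the shares were 39.8%, 50.2% and 89.6%. The 3 rows are therefore given one by one and as a sum, and a low level of a single copy, Bcl2a1d above all, may be an undercount. How the authors' processing assigned reads that fit several copies is not given in the sources used here. Another copy, Bcl2a1c, shares 0.797% of its end windows of 50 bases with the others.

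The other genes lie apart: Bcl2 at chr1:106538178-106714274, Bcl2l1 at chr2:152780668-152831728, Mcl1 at chr3:95658788-95663176, Bcl2l11 at chr2:128126038-128162547, Bak1 at chr17:27019810-27029009 and Bid at chr6:120891930-120916853, all in GRCm38.

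Bcl2 was highest in T cells, Bcl2l1, Mcl1 and Bcl2l11 in neutrophils, Bcl2a1a, Bcl2a1b and Bak1 in macrophages and Bid in cancer cells, and the leading lineage was the same in both T cell libraries for 8 of the 9 genes. In the sensitive library the macrophage lead over neutrophils was within counting error for Bcl2a1a (1.20-fold, 0.816 to 1.82) and Bcl2a1b (1.18-fold, 0.966 to 1.45), while in the resistant library it was 1.69-fold (1.18 to 2.50) and 1.95-fold (1.57 to 2.44). Levels are given as CPM, the UMIs of a gene among 1000000 UMIs summed over the cells of a lineage. They compare 1 gene between lineages, since they are not scaled for how well each transcript is captured. They are shares of all UMIs and not counts per cell. Median depths in the sensitive library ran from 2204 UMIs in neutrophils to 21192 in cancer cells, so counts per cell can order the lineages differently.

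**Figure D1:**
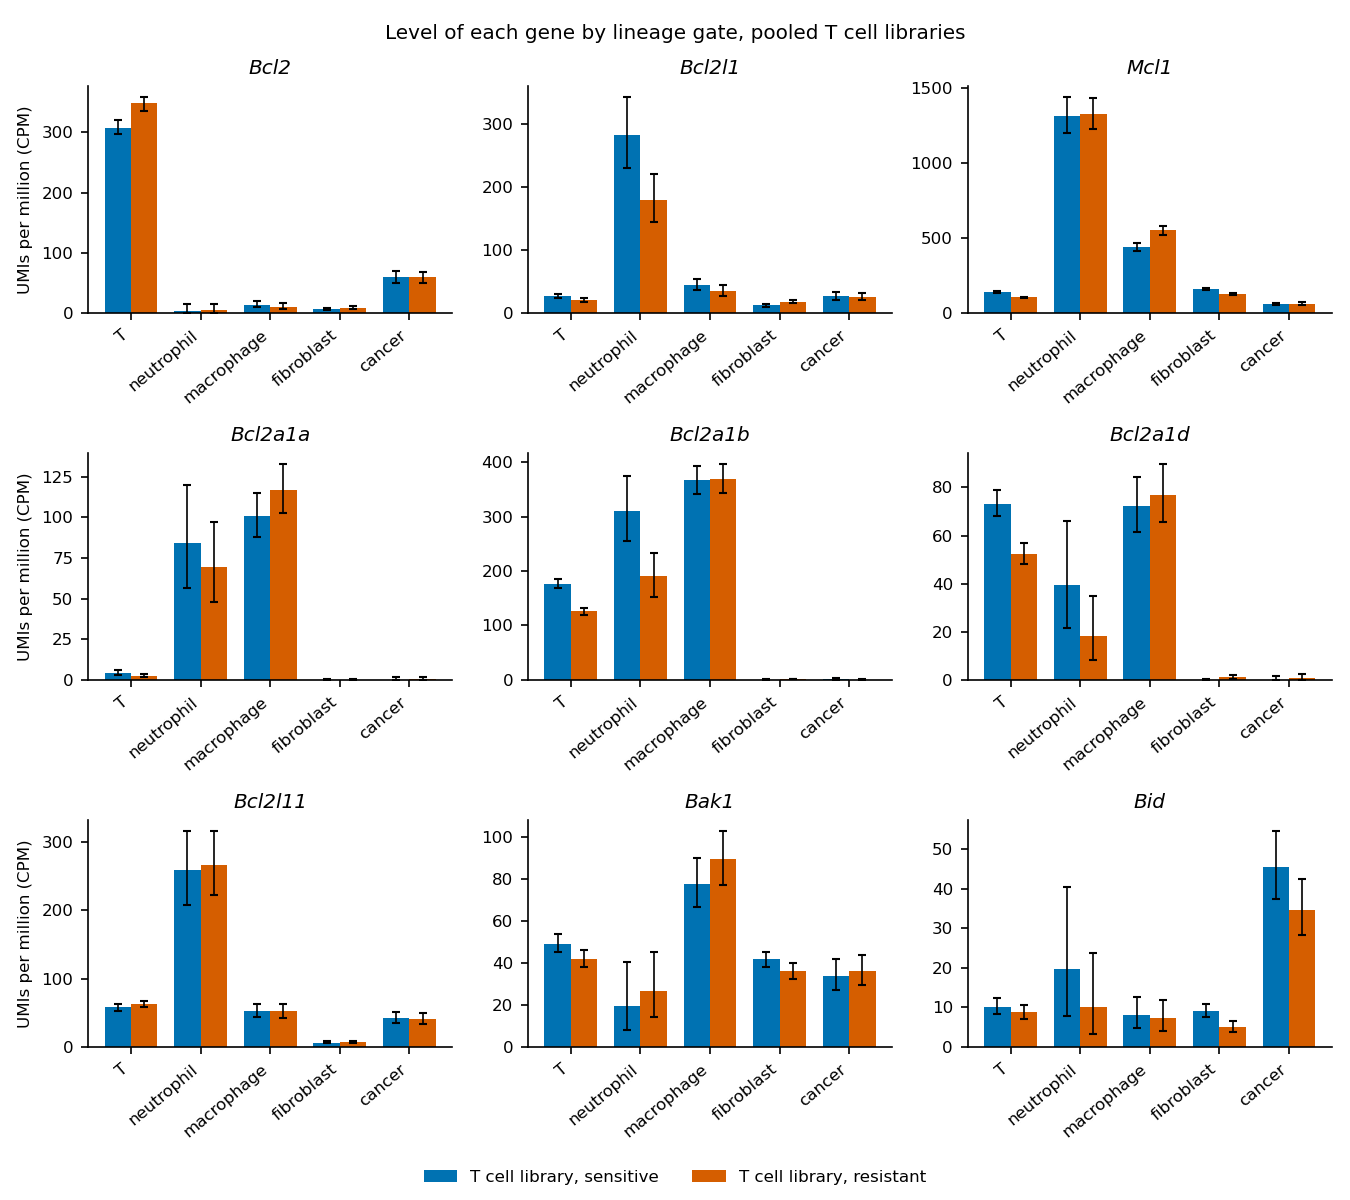
Level of each gene (vertical axes, CPM) in the T, neutrophil, macrophage, fibroblast and cancer lineages of the sensitive (blue) and resistant (orange) T cell libraries; error bars are exact 95% counting intervals and each panel has its own scale. Bcl2 stands highest in T cells, at 308 and 348 CPM, Bcl2l1, Mcl1 and Bcl2l11 in neutrophils, Bcl2a1a, Bcl2a1b and Bak1 in macrophages and Bid in cancer cells, with macrophage and neutrophil intervals of Bcl2a1a and Bcl2a1b overlapping in the sensitive library.

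Bcl2, the guardian of resting lymphocytes, was highest as a share of UMIs in the T lineage of these tumors. It reached 308 CPM in the T cells of the sensitive library (3051 UMIs, interval 298 to 320) and 348 CPM in those of the resistant library (3619 UMIs). Cancer cells came next at 59.7 and 58.9 CPM, so that T cells were 5.17-fold (4.38 to 6.14) and 5.90-fold (5.06 to 6.93) above them. Macrophages held 13.4 and 10.6 CPM and fibroblasts 6.81 and 8.87 CPM. Neutrophils gave 1 Bcl2 UMI in 142 cells and 2 in 167 cells, at the floor of what could be detected, and the neutrophils of the whole tumors gave 0 in 306, 0 in 221 and 1 in 135 cells. The order of the 5 lineages was the same in both libraries, although fibroblasts and neutrophils could not be told apart in either, nor macrophages and fibroblasts in the resistant library. In the whole tumors, T cells again had the higher level, with 484 CPM in the 44 T cells of the control (interval 345 to 658) and 283 CPM in the 12 of the resistant-labelled tumor, against 47.8 and 83.4 CPM in cancer cells.

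Bcl2l1, which encodes BCL-XL, had its highest level in neutrophils, at 283 CPM in the sensitive library (101 UMIs, interval 231 to 344) and 180 CPM in the resistant library (88 UMIs, interval 144 to 221). This was 6.35-fold (4.77 to 8.46) and 5.12-fold (3.71 to 7.08) over the next lineage, the macrophages, at 44.6 and 35.1 CPM. T cells held 26.8 and 20.8 CPM, cancer cells 26.6 and 25.6 CPM and fibroblasts 12.0 and 17.9 CPM. Below the neutrophils the ranking was loose, and in the resistant library no pair of neighbors among those 4 lineages was separated beyond counting error. In the whole tumors neutrophils held 297, 374 and 477 CPM in the control, sensitive-labelled and resistant-labelled libraries.

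Mcl1, whose protein is short-lived, showed a full gradient from neutrophils to cancer cells in the T cell libraries, as a share of all UMIs. Neutrophils held 1318 CPM in the sensitive library (470 UMIs, interval 1202 to 1443) and 1326 CPM in the resistant library (649 UMIs). Macrophages followed at 439 and 551 CPM, then fibroblasts at 158 and 128, T cells at 137 and 103 and cancer cells at 58.9 and 62.4 CPM. The same order held in both libraries, and each step exceeded its counting interval, from 3.00-fold (2.69 to 3.36) between neutrophils and macrophages to 1.16-fold (1.08 to 1.24) between fibroblasts and T cells in the sensitive library. Thinned to 1000 UMIs per cell, 70.4% of neutrophils (interval 62.2% to 77.8%) and 33.7% of macrophages had an Mcl1 UMI in the sensitive library. Counts per cell gave another order, with macrophages above neutrophils and cancer cells above T cells in both libraries. In the sensitive library 200 macrophages had 984 UMIs and 142 neutrophils 470, while 100 cancer cells had 144 and 1926 T cells 1357. In the whole tumors the neutrophil lead over macrophages was not seen, with 887, 810 and 658 CPM in neutrophils against 935, 884 and 635 CPM in the 14, 10 and 41 macrophages, in the order control, sensitive-labelled and resistant-labelled.

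The A1 copies were read almost wholly from the immune lineages. Summed over the 3 copies, macrophages held 540 and 564 CPM, neutrophils 435 and 278 CPM and T cells 254 and 181 CPM. Fibroblasts had 10 UMIs of 13225140 in the sensitive library and 28 of 10367916 in the resistant library, and cancer cells 2 and 5 UMIs. At full depth 1.22% and 2.48% of fibroblasts had a Bcl2a1b UMI. After thinning to 1000 UMIs per cell, 0 of 810 and 0 of 605 fibroblasts had one (exact upper bounds 0.454% and 0.608% of cells with a UMI at that depth), against 31.2% and 30.7% of macrophages. With 10 and 16 Bcl2a1b UMIs at full depth, few could be left after thinning, so these zeros add little to the full counts. A Bcl2a1d UMI remained in 2 of the 605 fibroblasts of the resistant library. The few UMIs in fibroblasts came beside a summed T marker level of 45.2 and 96.2 CPM and a summed macrophage marker level of 102 and 86.2 CPM in those cells, whose part in them was not tested.

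The copies did not share 1 pattern. Bcl2a1a was read mostly from myeloid cells, with 101 and 117 CPM in macrophages, 84.1 and 69.5 CPM in neutrophils and 4.45 and 2.69 CPM in T cells, so that neutrophils were 18.9-fold (11.5 to 30.8) and 25.8-fold (15.2 to 44.2) above T cells. Bcl2a1b was spread over all 3 immune lineages, at 367 and 370 CPM in macrophages, 311 and 190 CPM in neutrophils and 176 and 126 CPM in T cells. Bcl2a1d was the 1 gene whose leading lineage differed between the libraries. In the sensitive library its T cells, at 73.3 CPM, and macrophages, at 72.2 CPM, could not be separated (1.01-fold, 0.855 to 1.21), while in the resistant library macrophages at 76.9 CPM were 1.47-fold (1.23 to 1.76) above T cells at 52.3 CPM. In neutrophils Bcl2a1d had 14 and 9 UMIs, or 39.3 and 18.4 CPM. Whether a row also holds reads common to several copies is not known here. In whole-tumor macrophages, which numbered 14, 10 and 41 cells, Bcl2a1b stood at 760, 757 and 761 CPM in the control, sensitive-labelled and resistant-labelled tumors. These rest on 48, 42 and 199 UMIs, with intervals of 561 to 1008, 546 to 1024 and 659 to 875. A single cell gave 33.3% of the control and 40.5% of the sensitive-labelled UMIs.

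The death-promoting members were arranged differently. Bcl2l11, whose product BIM kills neutrophils and T cells deprived of survival factors, had 258 CPM in the neutrophils of the sensitive library (92 UMIs, interval 208 to 316) and 266 CPM in those of the resistant library (130 UMIs). T cells held 57.8 and 62.8 CPM, macrophages 52.6 and 52.4, cancer cells 42.5 and 41.0 and fibroblasts 6.43 and 7.23 CPM. As shares of all UMIs the order was the same in both libraries. Neutrophils were 4.46-fold (3.54 to 5.57) and 4.23-fold (3.47 to 5.11) over T cells. Cancer cells were 6.62-fold (4.92 to 8.92) and 5.67-fold (4.21 to 7.68) over fibroblasts. The steps from T cells to macrophages and from macrophages to cancer cells did not exceed counting error in either library. Counted per cell, cancer cells stood above neutrophils in both libraries. In the sensitive library 100 cancer cells had 104 UMIs and 142 neutrophils 92. In the resistant library 131 cancer cells had 117 UMIs and 167 neutrophils 130. This difference per cell was not tested.

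Bak1, the pore-forming effector, was detected in all 5 lineages. Macrophages led at 77.6 and 89.4 CPM, 1.58-fold (1.32 to 1.88) and 2.13-fold (1.78 to 2.53) over T cells at 49.2 and 42.1 CPM. Fibroblasts followed at 41.7 and 36.1 CPM, cancer cells at 33.9 and 36.1 CPM and neutrophils at 19.6 and 26.6 CPM. T cells exceeded fibroblasts by 1.18-fold (1.04 to 1.34) and 1.17-fold (1.01 to 1.34), and the steps from fibroblasts to cancer cells and from cancer cells to neutrophils were within counting error in both libraries. Neutrophil Bak1 rested on 7 and 13 UMIs.

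Bid, which links death receptors to mitochondria once cut by caspase-8, was highest in cancer cells, at 45.4 CPM (111 UMIs) and 34.7 CPM (99 UMIs). Every other lineage was between 5.02 and 19.6 CPM, and no neighbors among those could be separated. Cancer cells exceeded the next lineage, neutrophils, by 2.31-fold (1.09 to 5.88) and 3.40-fold (1.41 to 10.7), with 7 and 5 neutrophil UMIs behind that comparison. In the whole tumors the cancer cells had 9 Bid UMIs in the control and 10 in the resistant-labelled library, or 15.9 and 11.0 CPM. The neutrophils of these tumors had 8.04 and 9.68 CPM from 5 and 3 UMIs. Their intervals overlapped those of the cancer cells, so no clear lead was seen. The cancer cell intervals, 7.29 to 30.3 and 5.26 to 20.2 CPM, lay below the 45.4 and 34.7 CPM of the T cell libraries. The cause of this lower level was not tested.

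Over the 10 combinations of lineage and T cell library, the profiles of the genes were compared by Pearson's r of log2(CPM + 10). Among the neutrophil-led genes r was 0.90 for Bcl2l1 with Bcl2l11, 0.85 for Bcl2l1 with Mcl1 and 0.69 for Mcl1 with Bcl2l11. Mcl1 gave 0.89 with Bcl2a1a, 0.74 with Bcl2a1b and -0.63 with Bcl2, and Bcl2a1b with Bcl2a1d gave 0.94. These are descriptions over 10 points from 2 libraries whose cells share depth and lineage, and the value for the copies may also carry reads they have in common. Among the 12371 other genes with enough UMIs, the profiles nearest to Bcl2 were those of Sept6 (r = 0.995), Klk8 (0.994) and Sdcbp2 (0.990). Those nearest to Mcl1 were Snx18 (0.994), the neutrophil chemokine gene Cxcl2 (0.992) and Gla (0.991), and those nearest to Bcl2l1 were Dhx38 (0.989), Adipor1 (0.989) and Tmcc1 (0.986). Bcl2l11 was nearest to Sft2d2 (0.987), Pts (0.981) and Lpin2 (0.978). Bcl2a1a ran with the myeloid surface gene Cd300c2 (0.996), the chemokine gene Ccl6 (0.996) and the lectin gene Clec4n (0.994), whereas Bcl2a1b ran with Cyth4 (0.991), Nckap1l (0.991) and Pik3r5 (0.989) and Bcl2a1d with Fermt3 (0.989), Ucp2 (0.984) and Rgs2 (0.982). Bak1 was closest to Acp5 (0.981), Mvd (0.965) and Nagpa (0.957), and Bid to the epithelial genes Sfn (0.960) and Wfdc18 (0.960) and to Hook2 (0.952).

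The next comparison asked whether the survival genes stood at other levels in cells of sensitive than of resistant tumors, as ratios of sensitive over resistant CPM. A gene was counted as past the fold at a ratio of at least 1.5 or at most 1/1.5 with at least 50 UMIs over both libraries.

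**Figure D2:**
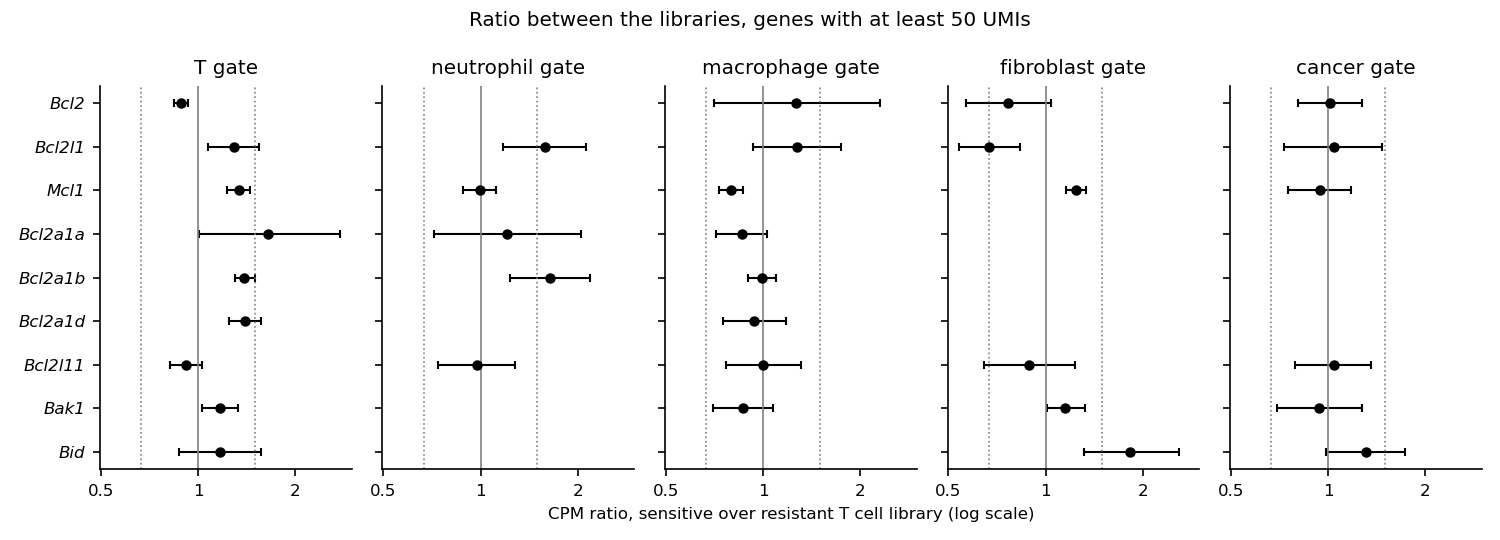
Ratio of the CPM in the sensitive to that in the resistant T cell library (horizontal axes, log scale) for each gene with at least 50 UMIs in that lineage; bars are exact 95% counting intervals, the solid line marks a ratio of 1 and the dotted lines the 1.5-fold limits. Bcl2a1a in T cells, Bcl2l1 and Bcl2a1b in neutrophils and Bid in fibroblasts lie beyond a dotted line, and none does in macrophages or cancer cells.

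Over all T cells the guardians parted, with Bcl2 lower and Mcl1, Bcl2l1 and the A1 copies higher in the sensitive library, all by less than 1.5-fold except Bcl2a1a. Mcl1 stood at 137 and 103 CPM, with the sensitive library first here and below, which gives a ratio of 1.34 (1.23 to 1.45). Bcl2a1b gave 176 and 126 CPM with a ratio of 1.39 (lower bound 1.30), Bcl2a1d 73.3 and 52.3 CPM with a ratio of 1.40 (1.25 to 1.57), and Bcl2l1 26.8 and 20.8 CPM with a ratio of 1.29 (1.07 to 1.55). Bcl2, at 308 and 348 CPM, gave 0.887 (0.845 to 0.931). Among the death-promoting genes, Bcl2l11 gave 0.920 (0.821 to 1.03), Bak1 1.17 (1.03 to 1.33) and Bid 1.17 (0.871 to 1.57).

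Past the fold was 1 of the 9 genes, against 12.7% of all 10087 genes tested in T cells, a share near that background. That gene, Bcl2a1a, had 44 and 28 UMIs and a ratio of 1.65 (1.01 to 2.76). The median gene had a ratio of 1.10, or 0.14 on the log2 scale, in favor of the sensitive library. Relative to that median Bcl2 gave 0.803, Bcl2l1 1.17, Mcl1 1.21 and the A1 sum 1.27, and Bcl2a1a was no longer past the fold.

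The Bcl2a1a difference was not seen in CD8+ T cells, where too few UMIs were read to settle it. Those cells, 1325 and 1574 in number, held 8 and 19 of the UMIs, a ratio of 0.591 (0.224 to 1.41), which has the opposite direction. In the sensitive library 15 of the 44 UMIs came from 47 gamma-delta T cells (Trdc and Tcrg-C1 detected), where the level was 79.2 CPM against 1.22 CPM in CD8+ cells, and 10 came from 175 CD4+ cells. The resistant library had 6 gamma-delta cells with 0 Bcl2a1a UMIs and 45 CD4+ cells with 1. In the T lineage the summed macrophage markers stood at 66.7 and 53.9 CPM and the neutrophil markers at 143 and 159 CPM, and their part in the Bcl2a1a row was not tested.

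Subsets of T cells differed from each other in their guardian genes. Subsets were set by marker UMIs, and each is compared with the CD8+ cells of its own library that are not in it.

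**Figure D3:**
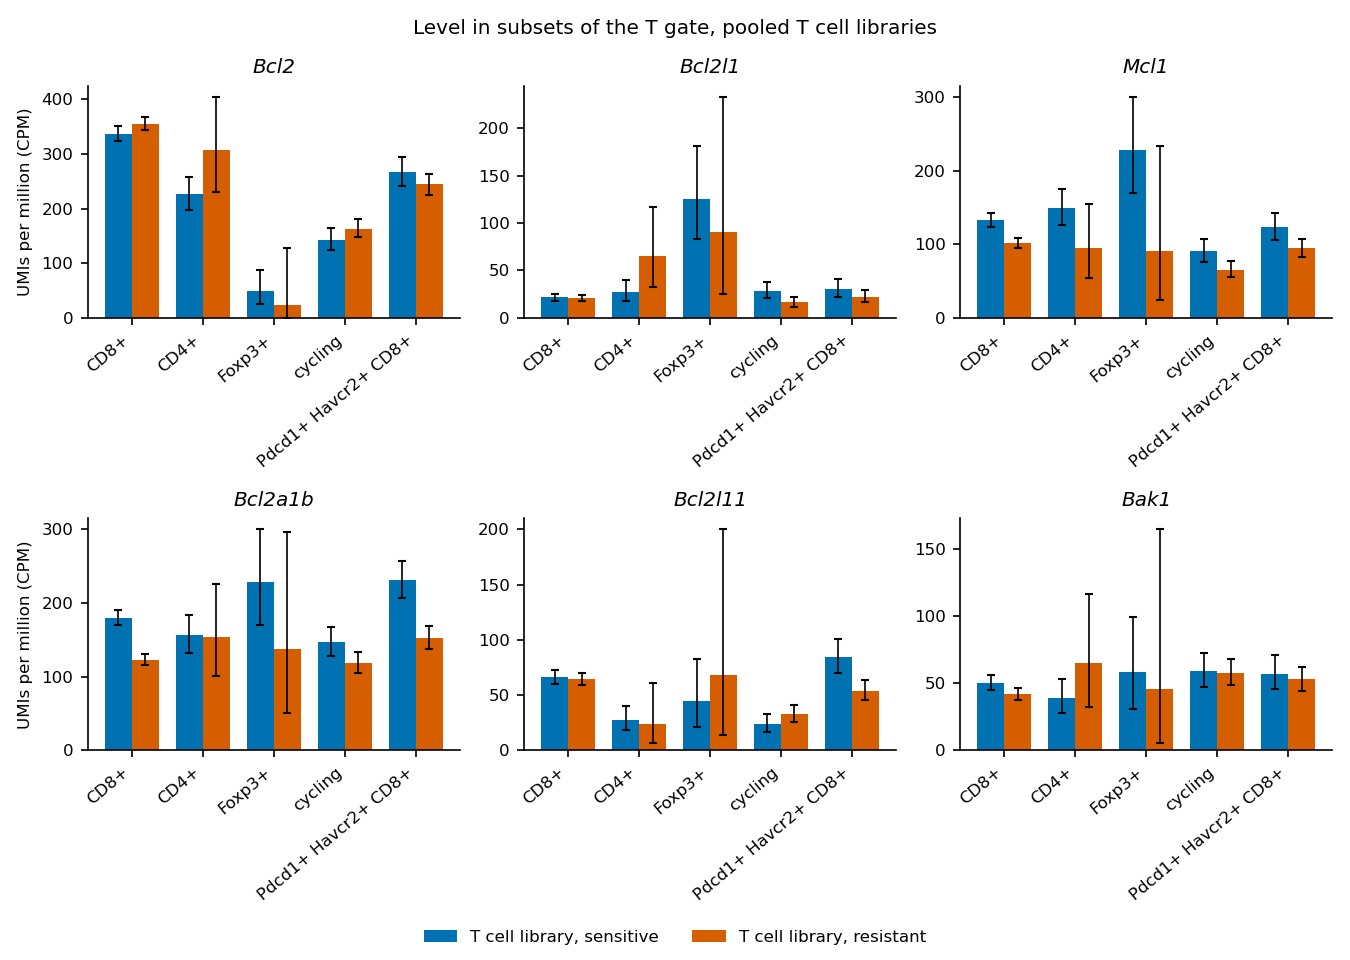
Level of 6 of the genes (vertical axes, CPM) in marker-defined subsets of the T lineage of the sensitive (blue) and resistant (orange) T cell libraries, with exact 95% counting intervals. Bcl2 is low in Foxp3+ and cycling cells, Bcl2l1 is high in Foxp3+ cells, and the wide bars of the resistant Foxp3+ subset reflect its 12 cells.

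Foxp3+ cells, the regulatory T cells, had little Bcl2 and much Bcl2l1. In the sensitive library 46 such cells gave 11 Bcl2 UMIs, or 49.2 CPM against 337 CPM in CD8+ cells, a ratio of 0.146 (0.0727 to 0.262), and 28 Bcl2l1 UMIs, or 125 against 21.5 CPM, a ratio of 5.82 (3.73 to 8.77). The 12 Foxp3+ cells of the resistant library gave 1 Bcl2 UMI, or 22.8 against 355 CPM (ratio 0.0641, 0.00162 to 0.357), and 4 Bcl2l1 UMIs, or 91.1 against 20.6 CPM (ratio 4.43, 1.19 to 11.5). Both differences thus had the same direction in each library. Mcl1 was 1.71-fold (1.27 to 2.27) above CD8+ cells in the Foxp3+ cells of the sensitive library and 0.901-fold (0.245 to 2.32) in those of the resistant one.

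Cycling T cells (at least 3 of 6 mitotic markers) had lower levels of Bcl2, Mcl1 and Bcl2l11, as shares of all UMIs, than the CD8+ cells outside the subset. Bcl2 stood at 143 against 371 CPM in the sensitive library (ratio 0.387, 0.335 to 0.445) and at 163 against 413 CPM in the resistant one (ratio 0.395, 0.354 to 0.439). Bcl2l11 gave ratios of 0.324 (0.224 to 0.456) and 0.440 (0.341 to 0.560), and Mcl1 0.631 (0.523 to 0.757) and 0.588 (0.491 to 0.700). Bak1 did not follow, with ratios of 1.18 (0.920 to 1.51) and 1.57 (1.26 to 1.94). The cycling cells were deeper, with medians of 11944 and 10306 UMIs against 3941 and 4372. Counted per cell instead, they did not have less Mcl1 (1.33 against 0.635 UMIs per cell in the sensitive and 0.781 against 0.562 in the resistant library). Bcl2 was at 2.11 against 1.64 and 1.94 against 2.08 UMIs per cell, and Bcl2l11 at 0.350 against 0.325 and 0.388 against 0.373. The resistant library had 196 cycling cells of 1818 and the sensitive library 103 of 1926.

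CD4+ cells without Foxp3 had less Bcl2l11 than CD8+ cells, at 27.5 against 66.1 CPM (ratio 0.417, 0.271 to 0.615) in the sensitive library and 23.7 against 64.4 CPM (ratio 0.368, 0.100 to 0.948) in the resistant one. Their Bcl2 was lower in the sensitive library, 226 against 337 CPM, while in the resistant library 308 and 355 CPM could not be separated.

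Within CD8+ cells alone, a comparison chosen after seeing the data, the Bcl2 difference was smaller, at 337 and 355 CPM (ratio 0.949, 0.898 to 1.00) and so was that of Bcl2l1, at 21.5 and 20.6 CPM (ratio 1.05, 0.836 to 1.31). Mcl1 at 133 and 101 CPM (ratio 1.32, 1.20 to 1.45) and the A1 sum at 250 and 177 CPM (ratio 1.42, 1.32 to 1.52) kept their size. In CD4+ cells without Foxp3, 175 and 45 in number, Bcl2l1 ran the other way, at 27.5 and 65.2 CPM from 27 and 11 UMIs (ratio 0.422, 0.203 to 0.943), and the A1 sum was at 247 and 237 CPM (ratio 1.04, 0.742 to 1.49). The 218 and 301 CD8+ cells with both Pdcd1 and Havcr2, genes of the checkpoint receptors PD-1 and TIM-3, gave 231 and 152 CPM of Bcl2a1b (ratio 1.52, 1.31 to 1.76) and 84.2 and 53.6 CPM of Bcl2l11 (ratio 1.57, 1.22 to 2.02). These 2 of 7 tested genes were past the fold, against 15.1% of 6602 genes in those cells. The median gene there had a ratio of 1.09, and relative to it neither gene would reach 1.5-fold. For Bcl2l11 the other T cell subsets did not follow, with ratios of 1.03 (0.904 to 1.16) in all CD8+ cells, 0.732 (0.478 to 1.10) in cycling and 0.460 (0.264 to 0.781) in interferon-stimulated cells, those with at least 4 of 6 interferon-induced genes. Bcl2 in the Pdcd1+ Havcr2+ cells was level at 267 and 244 CPM (ratio 1.09, 0.961 to 1.24).

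Shares of T cells with a UMI put the libraries in the same order as the levels for Bcl2, Mcl1 and Bcl2a1b. Thinned to 1000 UMIs per cell, which left out 16 and 4 T cells, 26.5% of T cells in the sensitive library (interval 24.6% to 28.6%) and 30.0% in the resistant library (27.9% to 32.2%) had a Bcl2 UMI. For Mcl1 the shares were 14.6% and 11.1% (9.67% to 12.6%), and for Bcl2a1b 16.3% (14.7% to 18.1%) and 10.9% (9.52% to 12.4%). In fibroblasts, which are not known to use Bcl2a1b and had median depths of 13226 and 13718 UMIs against 3993 and 4540 in T cells, the thinned shares were 0 of 810 and 0 of 605 cells. They held only 10 and 16 Bcl2a1b UMIs at full depth, so thinning alone could leave none. Shares for Bcl2l11 were 5.60% and 7.22%, and those for the remaining 5 genes were between 0.331% and 5.50%.

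The mitochondrial limit of 10% set aside far more T cells in the resistant library, 1058 against 41. The removed cells of the resistant library differed from the kept ones beyond counting error in 3 of the genes. Bcl2 stood at 440 CPM in them against 348 in kept cells (ratio 1.26, 1.19 to 1.34), Mcl1 at 121 against 103 (1.18, 1.05 to 1.32) and Bak1 at 31.6 against 42.1 (0.750, 0.604 to 0.926). With mitochondrial UMIs left out of the totals the ratios were 1.43, 1.33 and 0.847. With a limit of 20% the T cell ratio of Bcl2 between the libraries was 0.841 in place of 0.887.

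Neutrophils of the sensitive library had more Bcl2l1 and Bcl2a1b and about equal Mcl1. Bcl2l1 stood at 283 and 180 CPM, a ratio of 1.58 (1.17 to 2.12), and Bcl2a1b at 311 and 190 CPM, a ratio of 1.64 (1.23 to 2.18), while Mcl1 gave 0.994 (0.881 to 1.12) and Bcl2l11 0.972 (0.736 to 1.28). Past the fold were 2 of the 5 genes with enough UMIs, against 19.6% of the 1727 genes tested in neutrophils, and with so few genes tested the count does not set the family apart. The median mitochondrial share of these neutrophils was 1.30% and 5.29%, and its part was not tested. At a mitochondrial limit of 20%, with 157 and 299 cells, Bcl2l1 gave 1.41 and was no longer past the fold, while Bcl2a1b gave 1.87. With a mean over cells Bcl2l1 gave 1.44. Among the neutrophils without the granule genes Ngp and Camp, 140 and 161 cells, Bcl2l1 gave 1.44 (1.06 to 1.94) and Bcl2a1b 1.52 (1.14 to 2.04). The summed macrophage markers, the lineage in which Bcl2a1b leads, stood at 280 CPM in the neutrophils of the sensitive library and 384 CPM in those of the resistant library. The summed T cell markers, another lineage with Bcl2a1b, stood at 151 and 69.5 CPM against 9140 and 8831 CPM in T cells, and the part of either in the Bcl2a1b difference was not tested.

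In macrophages Mcl1 was lower in the sensitive library, at 439 against 551 CPM (ratio 0.797, 0.731 to 0.868), and the other 7 tested genes gave ratios of 0.859 to 1.27 whose intervals include 1. The summed neutrophil markers, the lineage in which Mcl1 leads, stood at 329 and 712 CPM in these macrophages against 100023 and 122343 CPM in neutrophils, and their part in the difference was not tested. With macrophages limited to cells with at most 1 marker of all other lists, the Mcl1 ratio was 1.00. None of the 8 tested genes was past the fold, against 10.9% of 6576 genes. Macrophages with at least 2 C1q UMIs had a lower Mcl1 level than those with fewer, 424 against 571 CPM in the sensitive library (ratio 0.743, 0.615 to 0.904) and 476 against 831 CPM in the resistant library (ratio 0.572, 0.505 to 0.650). They had more Bcl2a1b, 389 against 164 CPM (ratio 2.36, 1.69 to 3.40) and 392 against 286 CPM (ratio 1.37, 1.13 to 1.67). Per cell, Mcl1 was at 4.91 against 5.00 UMIs in the sensitive and 5.71 against 9.31 in the resistant library, at median depths of 11244 against 7612 and 12540 against 9151 UMIs. The C1q-low cells numbered 25 of 200 in the sensitive and 39 of 176 in the resistant library, and Mcl1 was lower in the sensitive library in both kinds, by a ratio of 0.892 (0.808 to 0.984) in C1q-high and 0.687 (0.556 to 0.844) in C1q-low cells.

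In fibroblasts Bid was higher in the sensitive library, at 9.15 against 5.02 CPM (121 and 52 UMIs, ratio 1.82, 1.31 to 2.58), and Bcl2l1 lower, at 12.0 against 17.9 CPM (ratio 0.670, 0.539 to 0.833), just inside the limit of 0.667. With a mean over cells in place of summed UMIs, the Bid ratio was 1.25. In fibroblasts with at most 1 marker of all other lists it was 1.51, with too few UMIs left to be counted. Mcl1 gave 158 and 128 CPM, a ratio of 1.24 (1.16 to 1.33), Bak1 1.15 (1.01 to 1.32), Bcl2 0.767 (0.567 to 1.04) and Bcl2l11 0.888 (0.644 to 1.23). Past the fold was 1 of the 6 tested genes, against 10.9% of 11251 genes. Fibroblast kinds were set by marker UMIs and may share cells. The Bid difference was present in Pi16+ fibroblasts, 8.97 against 5.29 CPM (ratio 1.70, 1.19 to 2.43), and in cells with Acta2 and Tagln, the genes of contractile myofibroblasts, 10.7 against 3.07 CPM (ratio 3.50, 1.66 to 8.22). Summed cancer markers, the lineage in which Bid leads, stood at 48.4 and 17.0 CPM in these fibroblasts against 7940 and 7620 CPM in cancer cells, and their part in the Bid difference was not tested.

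Fibroblast kinds also differed from each other in the sensitive library. The 63 with neither Pi16 nor the contractile pair had 15.4 CPM of Bcl2l11 against 5.76 CPM in Pi16+ cells (ratio of Pi16+ over them 0.375, 0.208 to 0.727) and 3.95 CPM in the contractile cells (ratio 0.258, 0.114 to 0.583). Their Mcl1, at 190 CPM, exceeded the 127 CPM of the contractile cells (ratio 0.667, lower bound 0.558), whose Bak1 was the higher, 56.2 against 38.4 CPM (ratio 1.46, 1.02 to 2.16). These levels are shares of all UMIs, and median depths were 7299 UMIs in the cells with neither, 13026 in Pi16+ and 27851 in contractile cells. Per cell, Mcl1 was at 2.75 UMIs in the cells with neither against 3.96 in contractile cells, the reverse of the levels, whereas Bcl2l11 was at 0.222 against 0.0863 in Pi16+ and 0.124 in contractile cells.

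In cancer cells no difference exceeded counting error. Ratios ran from 0.940 for Bak1 to 1.31 (0.988 to 1.73) for Bid, all 6 intervals included 1, and 0 of the 6 tested genes was past the fold against 10.1% of 7721 genes. Bcl2 was at 59.7 and 58.9 CPM, Mcl1 at 58.9 and 62.4 CPM, Bcl2l1 at 26.6 and 25.6 CPM and Bcl2l11 at 42.5 and 41.0 CPM. Differences within intervals such as those of Bcl2l1, 0.732 to 1.47, and Bak1, 0.695 to 1.27, were not detectable at this depth. These are the cancer cells left after a step meant to remove them.

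The wider apoptosis machinery was read from a list of 31 further genes. In T cells 26 of them had enough UMIs, and 3 were past the fold upward and 1 downward in the sensitive library, against 12.7% of all genes tested there, with a median ratio of 1.10, the same as that of all genes. Those higher were Birc3, which encodes the inhibitor of apoptosis cIAP2 (50.3 and 27.1 CPM, ratio 1.86, 1.60 to 2.16), Bbc3, which encodes the BH3-only protein PUMA (13.6 and 7.78 CPM, 1.75, 1.32 to 2.34), and the BH3-only gene Bik (10.4 and 6.24 CPM, 1.67, 1.21 to 2.31). The lower one was Birc5, survivin, which also serves as a mitotic marker (68.6 and 122 CPM, 0.563, 0.512 to 0.619). Of 6 genes tested in neutrophils 1 was past the fold, against 19.6% of all genes, Vdac2 (1.63, 1.06 to 2.50). In macrophages 3 of 20 were past it, against 10.9% of all genes, and the BH3-only gene Pmaip1 was lower (30.3 and 51.9 CPM, 0.584, 0.425 to 0.798) and Bbc3 (1.58, 0.962 to 2.64) and Xiap (1.55, 1.03 to 2.36) higher. In fibroblasts 3 of 25 were past it, against 10.9%, and Bmf (2.23, 1.30 to 3.98), Birc2 (1.72, 1.43 to 2.08) and Birc3 (1.55, 1.36 to 1.77) were higher. In cancer cells 1 of 18 was past it, against 10.1%, the cytochrome c gene Cycs (1.88, 1.22 to 2.93). With lists of this size, none of these counts sets the wider machinery apart from all genes.

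Of the whole-tumor lineages neutrophils alone were compared between libraries, with 306 cells in the control, 221 in the sensitive-labelled and 135 in the resistant-labelled library. Here the DOX treated tumors can be set against the saline control.

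**Figure D4:**
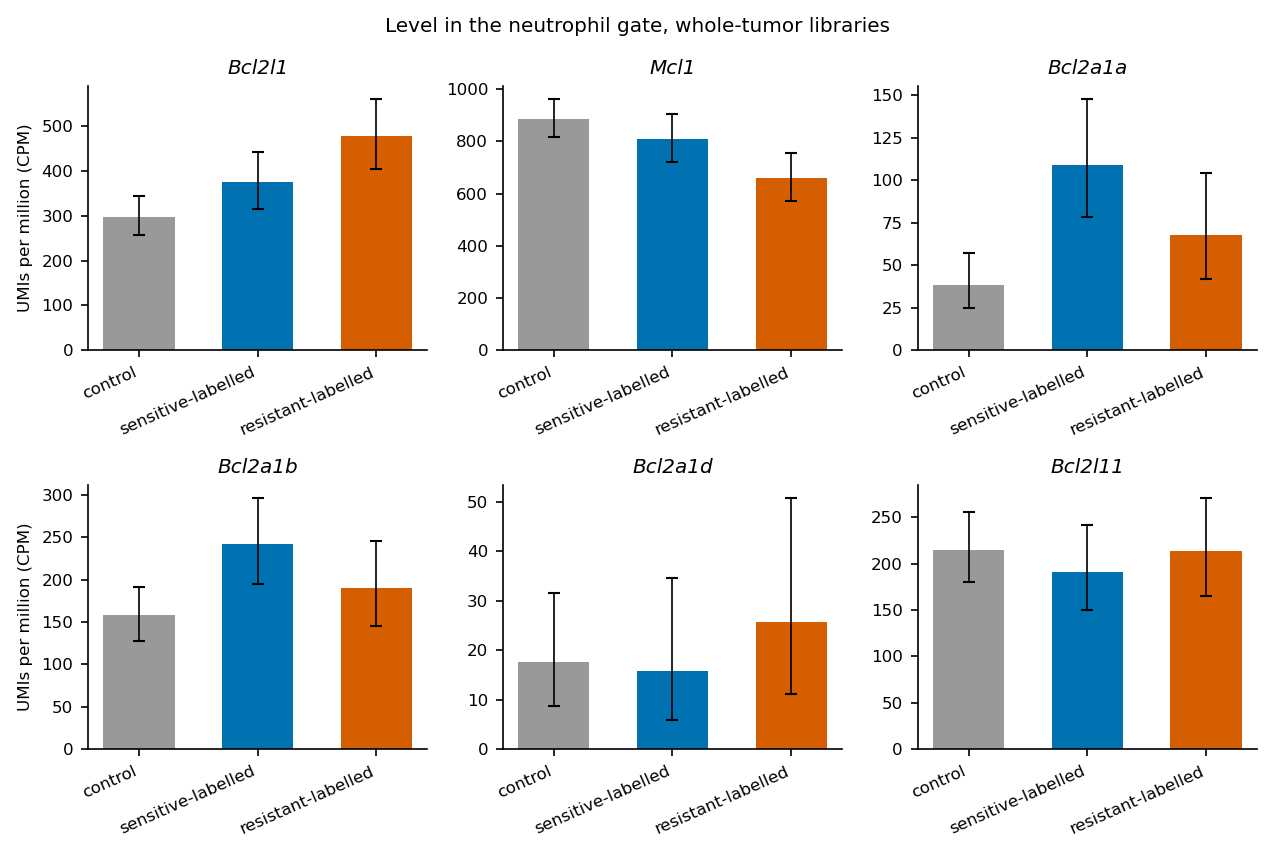
Level of 6 of the genes (vertical axes, CPM) in the neutrophils of the control (gray), sensitive-labelled (blue) and resistant-labelled (orange) whole-tumor libraries, with exact 95% counting intervals; each bar is 1 library. Bcl2l1 is lowest and Mcl1 highest in the control. Bcl2a1a is highest in the sensitive-labelled library at 109 CPM, with an interval that overlaps that of the resistant-labelled library.

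Bcl2l1 stood at 297 CPM in the control (185 UMIs), 374 CPM in the sensitive-labelled (141 UMIs) and 477 CPM in the resistant-labelled library (148 UMIs). Over the control this was 1.26-fold (1.00 to 1.58) and 1.61-fold (lower bound 1.28). The sensitive-labelled over the resistant-labelled library gave 0.784 (0.618 to 0.994), whereas in the neutrophils of the T cell libraries the sensitive side was the higher. Mcl1 ran the other way, at 887, 810 and 658 CPM, with 0.913 (0.791 to 1.05) and 0.742 (0.629 to 0.873) over the control. Median depths were 1498, 1471 and 2133 UMIs in the control, sensitive-labelled and resistant-labelled neutrophils. By cell, Mcl1 had 552 UMIs in 306 cells, 305 in 221 and 204 in 135. Counted that way the control remained highest, but the resistant-labelled library was above the sensitive-labelled one.

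Bcl2a1a and Bcl2a1b were highest in the sensitive-labelled library. Their leads over the resistant-labelled library were within counting error, at 1.61-fold (0.928 to 2.86) and 1.27-fold (0.905 to 1.79). Bcl2a1a had 38.6, 109 and 67.8 CPM from 24, 41 and 21 UMIs, and its sensitive-labelled level was 2.82-fold (1.67 to 4.88) that of the control. Bcl2a1b had 158, 242 and 190 CPM, with 1.53-fold (1.14 to 2.06) over the control in the sensitive-labelled and 1.21-fold (0.860 to 1.69) in the resistant-labelled library. In the sensitive-labelled library 1 cell gave 16.5% of the Bcl2a1b UMIs and 1 cell gave 17.1% of those of Bcl2a1a. Bcl2a1d, with 17.7, 15.9 and 25.8 CPM from 11, 6 and 8 UMIs, had too few UMIs to be ordered. Bcl2l11 was level at 215, 191 and 213 CPM. The summed macrophage markers in these neutrophils were 194, 247 and 323 CPM, and their part in the differences was not tested.

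Past the fold over the control were 2 of 5 tested genes in the sensitive-labelled library, against 30.3% of 1666 genes, and 1 of 4 in the resistant-labelled library, against 23.7% of 1544 genes. Between the DOX treated libraries 1 of 5 was past it, Bcl2a1a at 1.61 (0.928 to 2.86), against 16.3% of 1326 genes. The median gene stood at 1.12 and 1.10 in the comparisons with the control, and relative to it Bcl2a1b at 1.36 and Bcl2l1 at 1.46 were no longer past the fold, while Bcl2a1a at 2.51 was. Both first counts use the same control library. With 4 or 5 genes tested, none of the 3 counts sets the family apart from that background. Of 6 tested genes of the wider list, Bax (1.98, 1.43 to 2.75) and Pmaip1 (2.30, 1.44 to 3.72) were past the fold in the sensitive-labelled library over the control, and Pmaip1 (2.13, 1.29 to 3.53) in the resistant-labelled library.

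Neutrophils that still carried Ngp or Camp, granule genes of younger neutrophils, had lower levels of Mcl1, A1 and Bcl2l11 than the rest as shares of all UMIs. In the control 55 such cells stood at 584 CPM of Mcl1 against 1050 CPM in the other 251 (ratio 0.556, 0.453 to 0.680), at 59.8 against 296 CPM of the A1 sum (ratio 0.202, 0.104 to 0.358) and at 143 against 254 CPM of Bcl2l11 (ratio 0.560, 0.362 to 0.844). Bcl2l1 could not be separated, at 299 and 296 CPM (ratio 1.01, 0.734 to 1.38). The cells with granule genes were deeper, with a median of 3364 against 1400 UMIs. Counted per cell, only the A1 sum among these was lower in them, at 0.236 against 0.478 UMIs, while Mcl1 was at 2.31 against 1.69, Bcl2l11 at 0.564 against 0.410 and Bcl2l1 at 1.18 against 0.478 UMIs per cell. The DOX treated libraries held 19 and 4 such cells. Among the neutrophils without them, Mcl1 was 1050, 834 and 683 CPM in the control, sensitive-labelled and resistant-labelled libraries, with 0.795 (0.680 to 0.928) and 0.650 (0.547 to 0.771) over the control. Bcl2l1 gave 1.60 (1.24 to 2.05) in the resistant-labelled library, Bcl2a1a 2.27 (1.31 to 4.00) and Bcl2a1b 1.23 (0.905 to 1.68) in the sensitive-labelled library, so that the difference of Bcl2a1b was smaller among these cells and that of Mcl1 larger.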

How the data were processed

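Single-cell RNA-seq libraries were made with 10x Genomics 3′ v3 chemistry from tumor cells, 2 of isolated T cells and 3 of whole tumors. The authors deposited raw UMI count matrices, made with Cell Ranger (3.0.1 and 6.0.0 per the file headers) on mm10, with no cell annotation. The members and gene lists were chosen with earlier results of these data known.

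In whole tumors a cell was kept at 200 genes or more and a mitochondrial share of 20% or less, although all mitochondrial features were at 0 there. The limits were 500 genes and 10% in T cell libraries, where the highest Scrublet doublet scores (scanpy 1.11.5) were removed at 0.8% per 1000 barcodes. A cell entered a lineage with at least 3 of its 10 markers (9 for neutrophils of whole tumors) and 2 more than of any other list, 6 further lists included, and T cells also needed a Cd3d, Cd3e or Cd3g UMI. Cells of a lineage were rebuilt here from markers, not taken from the study. UMIs were summed per lineage and library and scaled to CPM. Intervals are exact Poisson for levels, Clopper-Pearson for shares and conditional binomial for ratios (scipy 1.17.1). With 1 library per group no test between conditions was made, so every member was named and, of the 31 other apoptosis genes, those past 1.5-fold with at least 50 UMIs; for each member the 3 genes of most similar profile with at least 100 UMIs were also named. The ratio intervals were tested on Poisson counts simulated from the T cell totals of the resistant library. Poisson error is what these intervals assume, so the simulation checks their computation and not the spread between cells or tumors. No ratio was taken between a whole-tumor and a T cell library. Alternatives covered the markers required, the mitochondrial limit, doublets, scaling, the mean over cells, the UMI minimum, the fold and thinning. Sequences and positions came from the GRCm38 reference and its GENCODE annotation, read with Biopython 1.88.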

Additional observations from a re-analysis of the deposited data

Results flagged for a closer look

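For Bcl2l1 the sensitive over resistant ratio had opposite directions in different lineages of the same libraries, at 1.29 in T cells and 1.58 in neutrophils against 0.670 in fibroblasts. The Bcl2l1 difference of T cells was 1.05 within CD8+ cells. For Mcl1 the ratio was 1.34 in T cells and 1.24 in fibroblasts against 0.797 in macrophages, where it was 1.00 with the strictest gate. With 1 library on each side, the difference between lineages was not tested.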

How the results depend on the processing

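No paired analysis was possible because each group had 1 library, and no replicate could be left out. Of the alternative values of the ratios between libraries, 256 moved by less than the counting interval of the reported ratio, 24 moved by more and 1 that was past the fold took the opposite direction. It was Bcl2a1a in T cells, from 1.65 to 0.591 with CD8+ cells only, an alternative chosen after seeing the data. In those cells the gene had 8 and 19 UMIs, under the minimum of 50. The counts of the 9 genes past the fold changed as follows, each with the share of all genes past it in that setting. In T cells the 1 gene became 0 with at most 1 marker of other lists (12.3%), with scaling by the median gene ratio (11.3%), at a fold of 2 (4.58%) and in CD8+ cells only (10.8%). In CD8+ cells only, Bcl2a1a had too few UMIs to be tested. In neutrophils the 2 became 1 at a mitochondrial limit of 20% (18.0%), 4 of 9 with no UMI minimum (38.9%) and 0 at a fold of 2 (4.98%). In macrophages the 0 became 1 with at most 1 marker of other lists (15.8%) and 3 with a mean over cells (17.1%). In fibroblasts the 1 became 2 with a looser gate (11.0%), with doublets kept (10.8%), with median scaling or with totals without mitochondrial and ribosomal protein genes (10.3% each) and with no UMI minimum (24.0%), and 0 with at most 1 marker of other lists (11.0%), a mean over cells (12.6%) or a fold of 2 (4.12%). In cancer cells the 0 became 1 with a mean over cells (17.4%). In whole-tumor neutrophils the 2 of the sensitive-labelled library over the control became 1 with median scaling (27.7%), a mean over cells (29.0%) or a fold of 2 (11.5%) and 4 with no minimum (56.2%). The 1 of the resistant-labelled library over the control became 0 with median scaling (22.2%) or a fold of 2 (8.29%) and 2 with no minimum (49.9%). The 1 between both DOX treated libraries became 0 with a looser gate (17.1%), a mean over cells (20.7%) or a fold of 2 (4.15%) and 2 with no minimum (45.4%). The causes were not tested.

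The T cell ratio of Bcl2 was 0.803 with median scaling and 0.816 with totals without mitochondrial and ribosomal protein genes. The lineage with the highest level changed for Bcl2a1d and Bcl2a1a among the 9 genes. For Bcl2a1a it became the neutrophils in the sensitive library with at most 1 marker of other lists or a mean over cells. For Bcl2a1d it became the macrophages in that library with a looser gate, a mitochondrial limit of 20%, doublets kept or a mean over cells. Without thinning, the shares of T cells with a UMI in the sensitive and resistant libraries were 64.2% and 73.3% for Bcl2, 10.9% and 10.8% for Bcl2l1, 44.4% and 38.9% for Mcl1, 1.71% and 0.990% for Bcl2a1a, 46.9% and 42.2% for Bcl2a1b, 25.6% and 21.8% for Bcl2a1d, 19.9% and 25.0% for Bcl2l11, 20.4% and 19.6% for Bak1 and 4.83% and 4.62% for Bid. Neutrophils, at median depths of 2204 and 2458 UMIs, gave under 50 UMIs over both T cell libraries for Bcl2, Bcl2a1d, Bak1 and Bid, so no ratio was read for these.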

Other observations

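Interferon-stimulated T cells, with at least 4 of 6 interferon-induced genes, numbered 122 and 99, with the sensitive library first. Bcl2l11 stood at 33.7 CPM in those of the sensitive library against 69.2 CPM in the other CD8+ cells (ratio 0.488, 0.302 to 0.748) and at 73.2 against 63.7 CPM in the resistant library (ratio 1.15, 0.832 to 1.55). Bcl2a1b was at 185 against 178 CPM and 162 against 121 CPM (ratios 1.04, 0.856 to 1.26, and 1.34, 1.08 to 1.65). The difference between libraries was not tested.

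Gamma-delta T cells of the sensitive library, 47 in number, had an A1 sum of 438 CPM against 250 CPM in CD8+ cells (ratio 1.75, 1.39 to 2.19), and Bcl2a1d was 169 against 69.0 CPM (ratio 2.45, 1.65 to 3.51). Their Bcl2 was 238 against 337 CPM (ratio 0.705, 0.512 to 0.946). The resistant library had 6 such cells, too few to repeat this, with 1 Bcl2a1d UMI (ratio 0.858, 0.0217 to 4.80) and an A1 sum of 352 against 177 CPM (interval of the ratio 0.860 to 3.94).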
